A study of Mus musculus with 27 samples.

Results

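The genes described here are the clustered protocadherins, taken as every probe set of the deposited table whose mapped gene symbol starts with Pcdha, Pcdhb or Pcdhg. There were 58 such genes, each with 1 probe set, among 20239 named probe sets and 21225 in all: 14 of the alpha cluster, 22 of the beta cluster and 22 of the gamma cluster. They lie on mouse chromosome 18 in that order, and in the gene order of the assembly GRCm38.p6 only Slc25a2 and Taf7 of the measured genes stand between them, both between beta and gamma. RNA of the right lung was measured on 27 Affymetrix Mouse Gene 1.0 ST arrays, from 3 female mice of 11 weeks for each of 9 inbred strains, with no treatment in the labels. A/J, C57BL/6J and DBA/2J are labelled with increased severity and increased frequency of spontaneous pulmonary adenoma. C57L/J, C3H/HeJ, BALB/cJ and 129S1/SvlmJ are labelled with increased severity and decreased frequency, and KK/HlJ and MRL/MpJ with decreased severity and decreased frequency. The class belongs to the strain and not to the single mouse, since all 3 mice of a strain carry the same one.

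Clustered protocadherins are cadherin-family adhesion proteins best known from neurons, where each cell displays its own combination of isoforms and like combinations recognise each other. In the alpha and gamma clusters each variable exon has its own promoter and is spliced to constant exons shared by the cluster, while the beta genes are single-exon genes without a constant part. Promoters of the variable exons are chosen largely at random in each neuron, through looping by CTCF and cohesin to distant enhancers, whereas the C-type isoforms at the end of the alpha and gamma clusters are less subject to this choice.

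All values are log2 signals as deposited, so a difference of 1 is a doubling of signal, and signals of different probe sets are not ranked against each other because each probe set has its own response. Array medians lay between 6.24 and 6.37. Over all genes 26 of 27 arrays were nearest to an array of their own strain, against 14 of 27 when the members alone were used. The lung epithelial markers, such as the surfactant genes, had a median level of 11.1. C3H/HeJ replicate 2 stood apart: its mean over the skeletal muscle list was 9.75, against 5.20 to 5.63 on the other 26 arrays, and over the adipocyte list 8.93, against 6.46 to 8.30. The array names carry serial numbers that run strain by strain, except that MRL/MpJ replicate 3 comes last, so for the other 8 strains the order of these numbers and the strain cannot be told apart. In whole lung RNA, fewer cells that use a gene and less RNA per cell cannot be told apart either. A probe set's signal depends both on the amount of transcript and on how well the strain's sequence matches the probes. The sources used here do not say where the probes lie or whether some read the shared constant exons. How much each counts was not tested, and members with closely similar sequences may share signal.

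Genes of the Y chromosome, absent from female mice, gave the only readout of background. Their highest strain mean was 5.25, reached by Sry, and 3.56 over the other 6. Against 5.25, 29 of the 58 members were above in every strain, 15 in some strains and 14 in none. The 29 comprised 2 alpha, 7 beta and 20 gamma members, and the 14 comprised 9 alpha, 5 beta and 0 gamma members. Against 3.56, 54 members were above in every strain. Of all named probe sets 62.5% exceeded the first level in every strain and 86.6% the second. Where a strain mean lay below 5.25, a difference from it may be a lower bound. Sry has its own probe response, so 5.25 need not be the background of a member.

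The first question was which members differed among the 9 strains. Of the 58 members 31 passed limma's moderated F test at a Benjamini-Hochberg adjusted p under 0.05, a share of 53.4%, where the background over all named probe sets was 28.9%. They were 16 of 22 gamma members (72.7%), 15 of 22 beta members (68.2%) and 0 of 14 alpha members. Within the gamma cluster, 6 of the 7 B-type genes, 8 of the 12 A-type genes and Pcdhgc3 and Pcdhgc5 of the C type passed. At an adjusted p under 0.01 the counts were 13 gamma, 9 beta and 0 alpha members. No alpha member passed although the strain means of an alpha member spanned a median of 0.76, against 0.72 for beta, 0.84 for gamma and 0.34 over all genes. Mice of one strain differed more in the alpha members: the median SD within a strain was 0.346 for alpha, 0.157 for beta and 0.193 for gamma, and 0.109 over all genes.

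**Figure D1:**
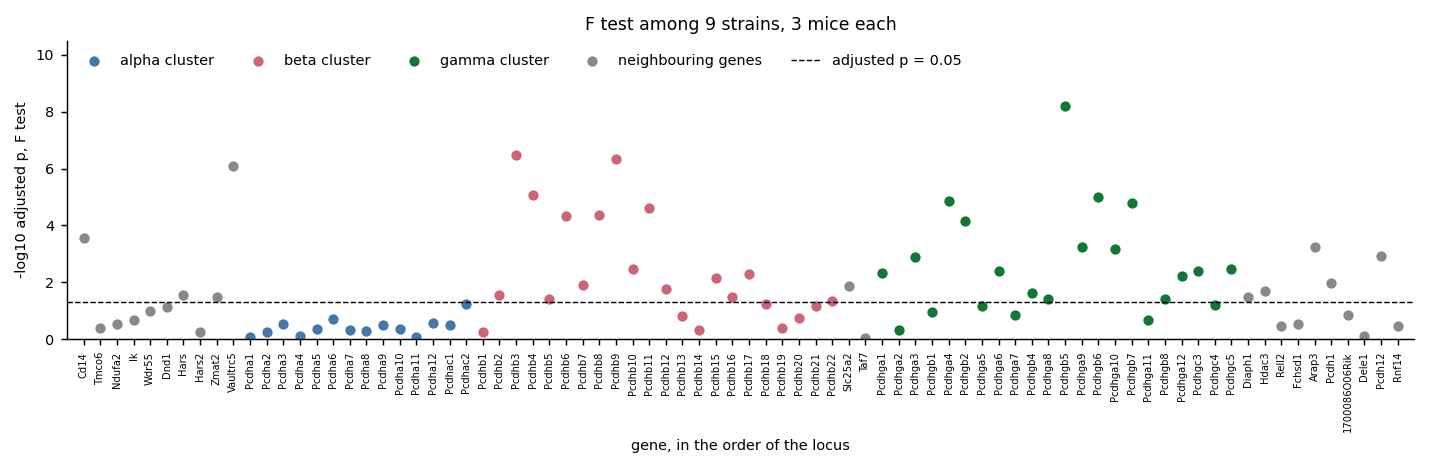
Each point is a gene in the order of the locus, with the 10 measured neighbours on either side and the 2 genes between beta and gamma in grey; the vertical axis is -log10 of the adjusted p of the F test among 9 strains with 3 mice each. All 14 alpha points lie under the dashed line at an adjusted p of 0.05, while 15 beta and 16 gamma points lie above it.

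**Figure D2:**
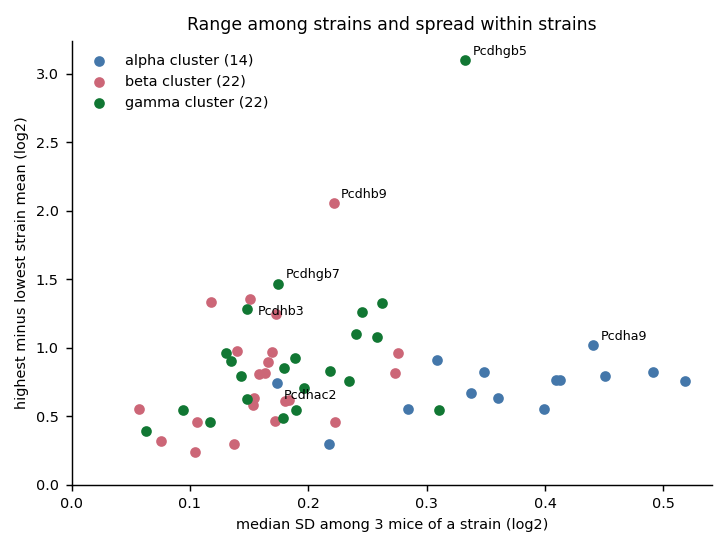
Each point is a member; the horizontal axis is the median SD among the 3 mice of a strain and the vertical axis the highest minus the lowest strain mean, both in log2 units. Pcdhac2 (0.173) and Pcdha4 (0.218) have the lowest median SD of the alpha members, and Pcdhgb5 is highest with a range of 3.10. The median of 0.346 given for alpha in the text is over 126 single SDs, not over these points.

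The second question, which the study's design sets out as 36 pairs of strains, used an adjusted p under 0.05 within the pair and a log2 difference of at least 1. By this rule 11 of the 58 members (19%) were called in at least 1 pair, where the background was 4.27%. They were Pcdhgb5 in 20 pairs, Pcdhb9 in 11, Pcdhga4 in 10, Pcdhgb7 in 8, Pcdhb4 in 6, Pcdhb3 and Pcdhga12 in 3 each, Pcdhb11, Pcdhgb4 and Pcdhgb6 in 2 each, and Pcdhga3 in 1. Of the 2088 combinations of a member and a pair 68 were called, 46 gamma and 22 beta, a share of 3.26% against 0.655% over all genes. At least 1 member was called in 29 of the 36 pairs, and in 26 of them a member other than Pcdhgb5. The 7 pairs without a call were the 6 among A/J, BALB/cJ, C57L/J and DBA/2J, and C57BL/6J with MRL/MpJ. The most members were called between C3H/HeJ and C57BL/6J, where Pcdhgb4, Pcdhgb5, Pcdhgb6, Pcdhgb7 and Pcdhga12 were lower in C3H/HeJ, 5 of 58 members where 0.899% of all genes were called in either direction.

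**Figure D3:**
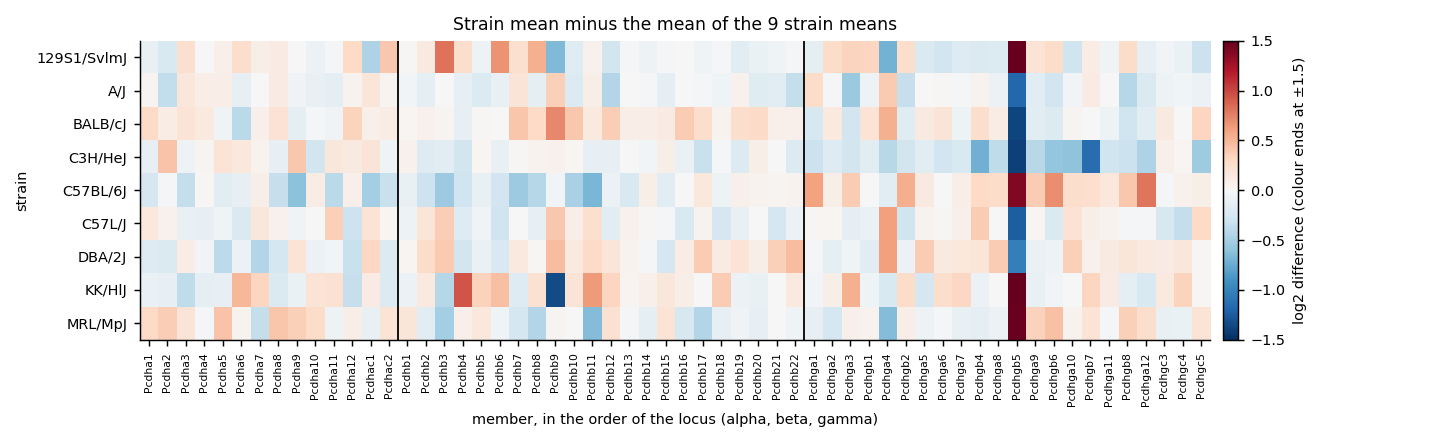
Rows are the 9 strains and columns the 58 members in the order of the locus, with black lines between the alpha, beta and gamma clusters; colour is the strain mean minus the mean of the 9 strain means in log2 units, red above and blue below, and colours end at 1.5 either way. Pcdhgb5 is the column with the strongest colours, and the blue run of gamma members in C3H/HeJ holds the 8 members that were lower there.

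Pcdhgb5, a B-type gamma isoform, divided the strains most widely. It read 7.84, 7.48 and 7.50 in 129S1/SvlmJ, 7.12, 7.38 and 7.42 in C57BL/6J, 7.39, 7.51 and 7.80 in KK/HlJ, and 7.76, 7.59 and 6.83 in MRL/MpJ. It read 5.40, 3.75 and 5.05 in A/J, 4.24, 4.61 and 4.77 in BALB/cJ, 4.01, 4.64 and 4.87 in C3H/HeJ, 5.04, 4.39 and 4.59 in C57L/J, and 4.18, 4.77 and 5.71 in DBA/2J. The 12 arrays of the first 4 strains were all at or above 6.83 and the 15 arrays of the other 5 all at or below 5.71, so the arrays did not overlap. Strain means ran from 4.51 in C3H/HeJ to 4.88 in DBA/2J at the low end and from 7.31 in C57BL/6J to 7.61 in 129S1/SvlmJ at the high end. The 20 pairs across this gap differed by 2.42 to 3.10, or 5.36- to 8.57-fold, with limma adjusted p of at most 6.89e-05. The 16 pairs on one side of it differed by at most 0.37, with a smallest adjusted p of 0.616. The 5 low strain means were under the Sry level of 5.25, and set against that level the high strains were 4.17- to 5.14-fold higher. The F test gave an adjusted p of 6.38e-09, rank 179 of all named genes, and all 20 pairs remained called in each fit that left out 1 array.

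The genes on either side of Pcdhgb5 did not show this gap. Pcdhga8 had strain means of 6.19 to 6.95 (F test, adjusted p = 0.0377) and Pcdhga9 of 7.07 to 7.87 (adjusted p = 0.000586). Both are A-type gamma isoforms, and neither was called in a pair. Across the 9 strain means Pcdhga8 had a Pearson correlation with Pcdhgb5 of -0.0035 and Pcdhga9 of 0.73. Among the 943 genes whose strain means spanned at least 1, Wfdc10 had the pattern most like that of Pcdhgb5 over 9 strains (r = 0.89). The members Pcdhga3 (0.88) and Pcdhgb6 (0.80) followed, then Ankrd63 (0.78) and Cyp3a13 (0.75). The B-type gamma member Pcdhgb2 was as close (r = 0.90), but its strain means spanned 0.90, so it was not among the 943. The most opposite of the 943 were Gatm (-0.87), Prelid2 (-0.84), Klra3 (-0.84), Mettl21e (-0.81) and H2-Ea (-0.81), of which Prelid2 is also on chromosome 18. These correlations describe 9 points that share arrays and strain relatedness, and the genes were picked as extremes of 943.

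Pcdhga4, an A-type gamma isoform, was called in 10 pairs. It read 6.74, 6.45 and 6.31 in A/J, 6.41, 6.78 and 6.72 in BALB/cJ, 6.85, 6.49 and 6.81 in C57L/J, and 6.47, 6.62 and 7.04 in DBA/2J. The lowest strain means were 5.39 in 129S1/SvlmJ and 5.45 in MRL/MpJ, with arrays of 5.61, 5.09 and 5.47 in 129S1/SvlmJ and 5.75, 5.24 and 5.37 in MRL/MpJ. Arrays of the other 3 strains lay between 5.40 and 6.37, so that KK/HlJ replicate 2 at 6.37 overlapped the higher strains. Against the mean of the other 8 strains it was higher in C57L/J by 0.69 (SE 0.16, adjusted p = 0.00614), DBA/2J and BALB/cJ, and lower in 129S1/SvlmJ by -0.80 (SE 0.16, adjusted p = 0.0015) and MRL/MpJ. A/J, at a mean of 6.50, did not pass that test.

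**Figure D4:**
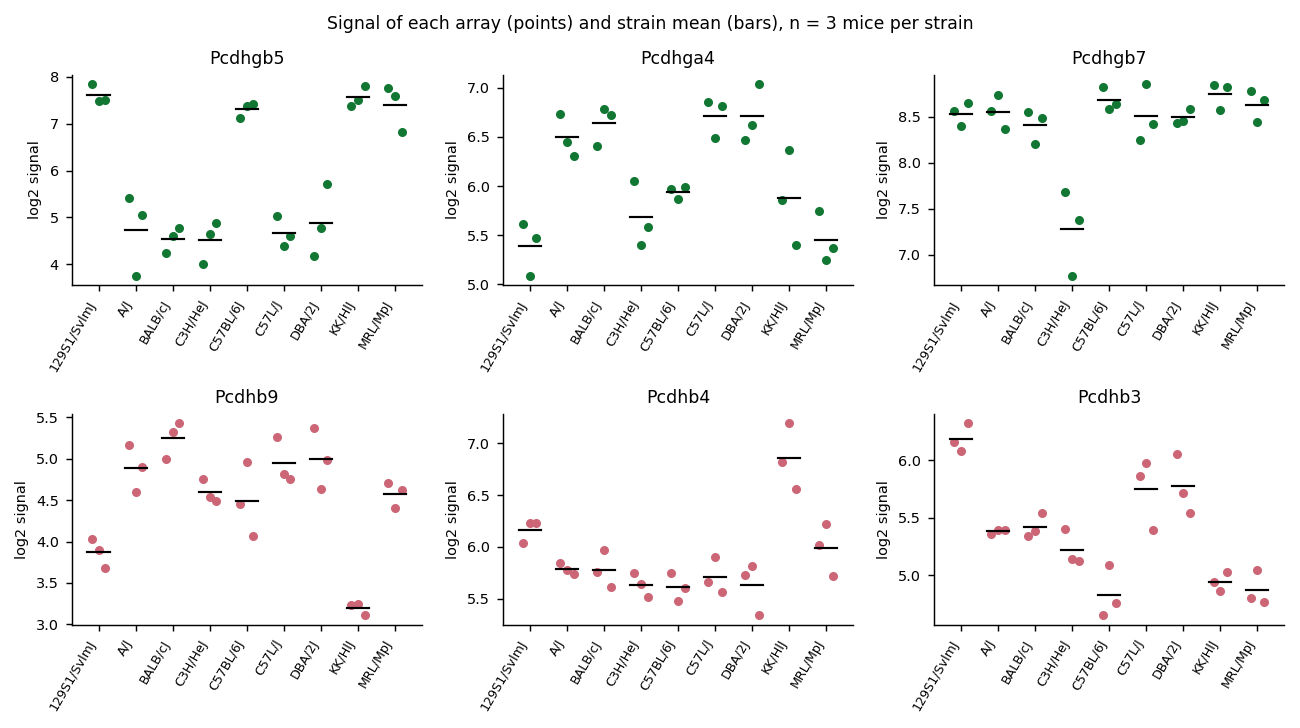
Each panel is a member and each point an array, with black bars at the strain mean of 3 mice; the vertical axis is log2 signal on a scale of its own in each panel, and beta members are red and gamma members green. Pcdhgb5 falls into arrays at or above 6.83 and at or below 5.71, Pcdhgb7 is low in C3H/HeJ, and Pcdhb9 is low and Pcdhb4 high in KK/HlJ.

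C3H/HeJ had the most gamma members lower than in the other 8 strains. Of its 22 gamma members 8 were lower and 0 higher, 20 had a negative difference and the median was -0.36. No alpha or beta member was called. Over all named genes 3.08% were lower in C3H/HeJ, and 8247 of 20239 had a negative difference. Pcdhgb7, a B-type isoform, read 7.68, 6.77 and 7.38 in C3H/HeJ, against 8.20 to 8.85, with a median of 8.57, on the other 24 arrays. All 3 C3H/HeJ mice were below every mouse of the other strains. The difference was -1.29 (SE 0.13, limma adjusted p = 4.9e-07), and Pcdhgb7 was called in all 8 pairs with C3H/HeJ and in none between other strains. The other 7 were Pcdhgb5 (-1.58), Pcdhgb4 (-0.81), Pcdhga10 (-0.68), Pcdhgb6 (-0.66), Pcdhgc5 (-0.60), Pcdhga9 (-0.47) and Pcdhga6 (-0.32). Without C3H/HeJ replicate 2, the array with high muscle and fat genes, 6 gamma members were lower, with a median gamma difference of -0.34. Pcdhgb4 (adjusted p = 0.0673) and Pcdhga6 (0.13) were then not called, and Pcdhgb7 differed by -1.04 (adjusted p = 1.47e-05). Quantile normalization or median centring, which move the median of all genes by -0.05 to 0.08 on single arrays, gave 15 lower members in C3H/HeJ, 13 gamma and 2 beta, and array weights gave 5.

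C57BL/6J showed opposite counts in the beta and gamma clusters. Of the gamma members 6 were higher and 0 lower, with a median of 0.29, and of the beta members 0 were higher and 6 lower, with a median of -0.13. Over all named genes 4.06% were higher and 4.11% lower in C57BL/6J. The median over all named genes was -0.05. With array weights 11 gamma members were higher, and 10 beta members and 1 alpha member lower. Quantile normalization gave 6 gamma members higher and 5 beta members lower. The beta median was then -0.02, near the -0.01 of all genes, and the gamma median 0.29. Median centring gave 7 gamma members higher and 6 beta members lower, with a beta median of -0.11. The 6 gamma members were Pcdhgb5 (1.57), Pcdhga12 (0.90), Pcdhgb6 (0.79), Pcdhga1 (0.68), Pcdhgb2 (0.62) and Pcdhga9 (0.42). Pcdhgb6 read 7.65, 7.82 and 8.08 in C57BL/6J, and the highest array of another strain, MRL/MpJ replicate 2, also read 7.65. Pcdhgb6 was higher in MRL/MpJ too (0.49). Pcdhga12 read 5.70, 6.38 and 6.00 in C57BL/6J, and MRL/MpJ replicate 1 at 6.17 was the only other array above 5.58. The 6 beta members were Pcdhb11 (-0.78), Pcdhb7 (-0.62), Pcdhb3 (-0.61), Pcdhb10 (-0.55), Pcdhb8 (-0.49) and Pcdhb13 (-0.25).

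Of these beta genes Pcdhb11, Pcdhb3 and Pcdhb8 were lower in MRL/MpJ as well. Pcdhb11 read 4.86, 5.09 and 4.93 in C57BL/6J and 5.11, 4.89 and 4.99 in MRL/MpJ, and 5.45 to 6.72 on every other array. Both strains thus lay under all the others, by -0.78 (SE 0.13, adjusted p = 0.00028) in C57BL/6J and by -0.74 (SE 0.13, adjusted p = 0.000608) in MRL/MpJ against the other 8. In MRL/MpJ 4 beta members were lower and 1 higher, and 3 gamma members higher and 1 lower, where 6.83% of all genes were higher and 5.61% lower.

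In KK/HlJ, Pcdhb9 was lower and Pcdhb4 higher than on any array of another strain. Its beta members were higher in 5 and lower in 2 of 22, and its gamma members higher in 3 and lower in 0, where 4.55% of all genes were higher and 2.83% lower. Without KK/HlJ replicate 2, 3 beta members were higher and 2 lower, and 1 gamma member was higher. Pcdhb9 read 3.24, 3.24 and 3.11 in KK/HlJ, against 3.67 to 5.43, with a median of 4.73, on the other 24 arrays. Every KK/HlJ array was below all others, the difference was -1.51 (SE 0.15, adjusted p = 1.76e-07), and every pair with KK/HlJ was called except that with 129S1/SvlmJ. The KK/HlJ mean of 3.19 lay under both Y-linked levels. BALB/cJ was the highest strain at 5.25, the level of Sry, and the other 8 strains lay under that level, so no fold is given for Pcdhb9. The next lowest strain was 129S1/SvlmJ, with 4.03, 3.90 and 3.67 (-0.75, adjusted p = 0.00158). Pcdhb4 went the other way in KK/HlJ, with 6.81, 7.19 and 6.56 against 5.34 to 6.23 elsewhere, so that the arrays did not overlap. The difference was 1.07 (SE 0.11, adjusted p = 4.78e-07), and every pair with KK/HlJ was called except those with 129S1/SvlmJ and MRL/MpJ. Pcdhb11 at 6.37, 6.72 and 5.79 (0.72), Pcdhb6 (0.50), Pcdhb18 (0.43) and Pcdhb5 (0.39) were also higher in KK/HlJ, and Pcdhb3 (-0.49) was lower.

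In 129S1/SvlmJ 6 members were higher and 3 lower, where 3.54% of all genes were higher and 6.43% lower. Pcdhb3 led the beta members, with 6.16, 6.08 and 6.32 in 129S1/SvlmJ, against 4.65 to 6.06, with a median of 5.35, on the other 24 arrays. All 3 mice were above every other mouse, the nearest being DBA/2J replicate 1 at 6.06. The difference was 0.91 (SE 0.10, adjusted p = 2.48e-06), and Pcdhb3 was called in the pairs of 129S1/SvlmJ with C57BL/6J, KK/HlJ and MRL/MpJ. Pcdhb6 (0.75), Pcdhb8 (0.60) and Pcdhgb1 (0.36) were also higher. Pcdhac2, an alpha C-type isoform that in mice is needed for the spacing of serotonergic axons, read 7.46, 7.22 and 7.56 in 129S1/SvlmJ and was higher by 0.46 (SE 0.14, adjusted p = 0.0385). This call, the only one of an alpha member in a strain, was lost when any 1 of the 129S1/SvlmJ arrays was left out, leaving 0 alpha members. Arrays of other strains reached 7.40, and its F test among strains had an adjusted p of 0.0592.

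BALB/cJ, DBA/2J, C57L/J and A/J all had Pcdhgb5 lower than the other 8 strains. BALB/cJ had 4 beta members higher and 0 lower, where 2.48% of all genes were higher and 3.01% lower. The 4 were Pcdhb9 (0.81), Pcdhb10 (0.46), Pcdhb16 (0.43) and Pcdhb8 (0.34). Of its 22 beta differences 20 were positive, against 10845 of 20239 over all named genes. Without BALB/cJ replicate 2, 16 of the 22 were positive, and without replicate 1 or replicate 3, 20. DBA/2J had 5 beta members higher and 1 lower, and 2 gamma members higher and 1 lower, where 2.87% of all genes were higher and 1.94% lower. The DBA/2J beta members that were higher were Pcdhb9 (0.52), Pcdhb22 (0.51), Pcdhb3 (0.45), Pcdhb17 (0.42) and Pcdhb21 (0.41). C57L/J had 2 members higher, Pcdhga4 and Pcdhb3 (0.42), and 4 lower, all gamma, where 3.69% of all genes were higher and 2.94% lower. A/J had 0 members higher and 4 lower, Pcdhgb5, Pcdhga3 (-0.62), Pcdhb12 (-0.50) and Pcdhgb2 (-0.40), where 1.96% of all genes were higher and 3.75% lower. These counts depended on single arrays: leaving out 1 array gave as few as 2 members for DBA/2J, 2 for C57L/J, 2 for BALB/cJ and 0 for A/J.

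**Figure D5:**
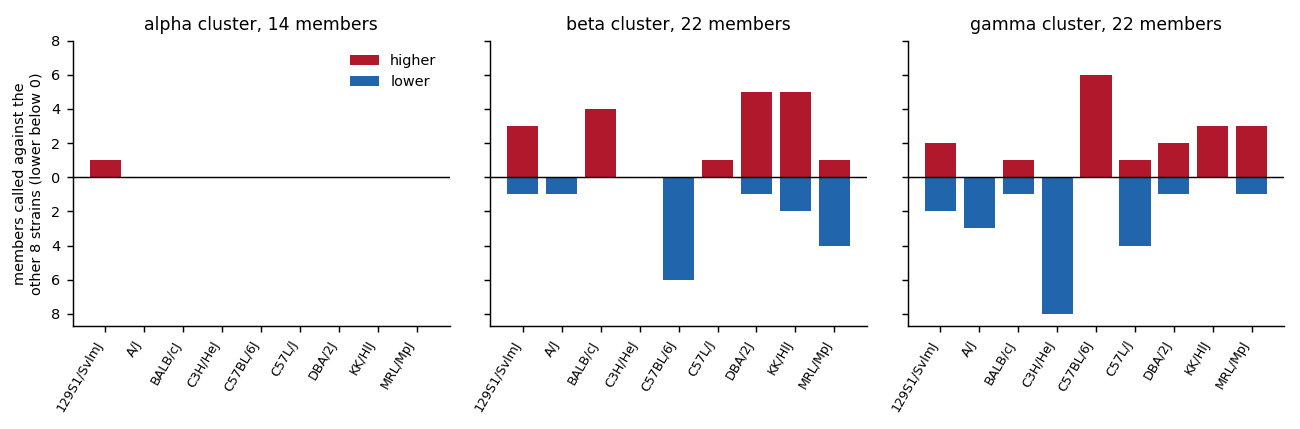
Bars give the number of members higher (red, up) or lower (blue, down) in a strain than in the mean of the other 8 strains at an adjusted p under 0.05, for the alpha, beta and gamma clusters in turn. C3H/HeJ has 8 gamma members lower, C57BL/6J 6 gamma members higher and 6 beta members lower, and the alpha cluster holds 1 call.

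None of the 5 C-type isoforms was called in a pair, and 2 passed the F test. Pcdhgc3, the gamma isoform that promotes dendrite branching in mouse cortical neurons, had strain means of 7.42 in C57L/J to 7.81 in KK/HlJ (F test, adjusted p = 0.00394), and was lower in C57L/J, with 7.62, 7.35 and 7.30, by -0.27 (adjusted p = 0.00491). Pcdhgc5 had means of 5.99 in C3H/HeJ to 6.84 in BALB/cJ (adjusted p = 0.00339), with 5.75, 5.90 and 6.31 in C3H/HeJ. Pcdhgc4, which in mice is needed for the survival of some neurons, had means of 6.00 in C57L/J to 6.71 in KK/HlJ (adjusted p = 0.0654). Pcdhac1 had means of 4.30 in C57BL/6J to 5.13 in DBA/2J (adjusted p = 0.31), under the Sry level of 5.25 in every strain.

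The other alpha members are variable isoforms, and their arrays overlapped between strains. Pcdha9 had the widest range among them, from 4.39 in C57BL/6J to 5.41 in C3H/HeJ, with single arrays from 3.92 to 6.06 (F test, adjusted p = 0.323). The C3H/HeJ arrays alone read 5.53, 6.06 and 4.63. Pcdha6 had means of 5.23 in BALB/cJ to 6.14 in KK/HlJ (adjusted p = 0.196), and Pcdha5 of 4.14 in DBA/2J to 4.96 in MRL/MpJ (0.443). Pcdha4 had single arrays of 2.39 to 3.24 (0.754), and none of its strain means exceeded either Y-linked level. In the beta cluster Pcdhb14 had means of 3.91 to 4.15 (0.47), and Pcdhb16 of 6.24 in MRL/MpJ to 6.86 in BALB/cJ (0.0336).

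Similarity between members is given as a description. Over the 9 strain means, the median Pearson correlation between members was 0.32 within the gamma cluster, 0.22 within beta and 0.15 within alpha, and -0.18 between alpha and gamma members. Neighbours in a cluster had a median of 0.29 over 55 pairs of genes, and other genes of the same cluster 0.24 over 498. After removal of the strain means, the median over 27 arrays was 0.28 within beta, 0.12 within gamma and 0.02 within alpha. All these values share the same arrays.

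Outside the clusters, of the 20 nearest measured neighbours 9 passed the F test and 0 were called in a pair, and their strain means spanned a median of 0.33; the widest were Vaultrc5 (6.38 in 129S1/SvlmJ to 7.32 in KK/HlJ) and Cd14 (6.34 in 129S1/SvlmJ to 7.26 in C57BL/6J). Of the genes inside the locus Slc25a2, a mitochondrial carrier, passed (adjusted p = 0.0141) and Taf7, a general transcription factor subunit, did not (0.903). Of the 12 nonclustered protocadherins, single genes outside the clusters, 7 passed; Pcdh1 and Pcdh12 among them are also counted with the neighbours of the gamma cluster. Of the 12, Pcdh18 (8.06 in C57L/J to 9.25 in C57BL/6J) alone was called in a pair, in 1 of 36. Of 19 measured genes for promoter choice and chromatin at the locus 2 passed, Dnmt3b, a DNA methyltransferase (adjusted p = 0.0276), and Ehmt2, a histone methyltransferase (0.0338), while the insulator protein gene Ctcf ranged from 8.61 to 8.84 (0.185). Of 11 measured partners of protocadherin signalling 4 passed, led by the kinase gene Ptk2b (0.00372) and by Cyfip2 (0.00635). These counts stand beside the same background of 28.9%.

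Markers of cells that could carry protocadherin transcripts were measured on the same arrays. Of 13 neuronal markers 5 passed the F test, and their mean per array was 4.56 to 4.92, with Uchl1 the first of them. Of 9 Schwann cell markers 3 passed, with a mean per array of 5.66 to 6.02. Of 12 fibroblast markers 9 passed, at 9.53 to 9.93 per array, and of 8 mesothelial markers 6 passed, at 7.14 to 8.53, with 6 of the 8 higher in 129S1/SvlmJ. In C3H/HeJ the neuronal list averaged 4.73, inside the range of the other 8 strains of 4.65 to 4.86. Every array mean of this list lay under the Sry level of 5.25 and above the 3.56 of the other 6 Y-linked genes. Whether neuron content differed was not tested. Against the other 8 strains, C3H/HeJ had 2 Schwann cell markers and 1 mesothelial marker lower, and 1 fibroblast marker higher. No neuronal marker was called there. The part of these cells in the strain differences was not tested.

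The third question set strains of increased adenoma class against strains of decreased class, with the strain mean as the unit. No member was called for severity (7 increased against 2 decreased strains), frequency (3 against 6) or both (3 against 2), in limma fits in which 0.00988%, 0% and 0.00494% of all genes were called. At an unadjusted p under 0.05 there were 5, 6 and 5 members, where 7.04%, 7.7% and 8.62% of all genes reached it. Strain means did not overlap between the severity classes for 0 members higher and 3 lower in the increased class, between the frequency classes for 0 higher and 2 lower, and between strains increased and decreased in both for 5 higher and 8 lower. Over all genes 6.69%, 3.92% and 27% did not overlap.

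Pcdhb5 and Pcdhb15 were the 2 of 58 members without overlap between the frequency classes, where 3.92% of all genes had none. They did not overlap in the other 2 of the 3 comparisons either. A gene without overlap for severity or for frequency cannot overlap for both, whose strains are parts of those classes. The share of all genes without overlap in all 3 is not given here. The nearest strains were close: Pcdhb5 by frequency was 4.58 in DBA/2J and 4.60 in 129S1/SvlmJ. Pcdhb15 by severity was 6.26 in BALB/cJ and 6.31 in KK/HlJ. Pcdhb15 averaged 5.96 in the strains increased in both and 6.33 in those decreased in both (difference -0.37, SE 0.07, unadjusted p = 0.000602, adjusted p = 0.404). Its strain means were 5.89 to 6.01 in the strains increased in both, and 6.31 to 6.35 in those decreased in both. Pcdhb5 averaged 4.61 in the strains of increased severity and 4.93 in those of decreased severity (difference -0.32, SE 0.08, unadjusted p = 0.00165, adjusted p = 0.521). Its strain means were 4.47 to 4.71 in the strains of increased severity and 4.84 to 5.02 in those of decreased severity, all under the Sry level. Pcdhgb5 averaged 5.47 in the strains of increased severity and 7.48 in those of decreased severity (adjusted p = 0.696), but 129S1/SvlmJ and C57BL/6J, both of increased severity, lay with KK/HlJ and MRL/MpJ.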

How the data were processed

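The authors deposited log2 signals of 21225 probe sets on 27 arrays; the affy package was used per the submitters' processing notes, and its version and the normalization are not given in the sources used here. Values were used as deposited. Symbols came from the platform's probe table (20239 probe sets with 1 symbol) and gene order from RefSeq (GRCm38.p6), for names and neighbours only. No sequence is printed here.

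In R 4.3.3 with limma 3.58.1, lmFit and eBayes gave each strain its own mean over the 27 arrays. Contrasts were the F test, 36 pairs, and each strain minus the mean of the other 8. Adenoma classes were tested on the 9 strain means. Benjamini-Hochberg adjustment ran over all 20239 named probe sets. The fits were tested on simulated data. Replicates are separate mice per the series design, and 3 per strain limits the precision.

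Members and gene lists were chosen with earlier results of these data known. Given by array were, per cluster, the 4 members called in most pairs. Also named were C-type isoforms, members of highest and lowest mean level, and those with the 2 smallest F p-values. So were up to 4 genes per list, and the genes most and least like Pcdhgb5 among those spanning at least 1. Replicate numbers did not pair the mice: samples with the same number in different strains correlated, after removal of strain means, at -0.27 to 0.28. Alternatives were other scalings (median centring, quantile normalization), array weights, a trended robust prior, adding unnamed or removing dim probe sets, the replicate block, other thresholds, and leaving out single strains or arrays.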

Additional observations from a re-analysis of the deposited data

Results flagged for a closer look

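Among the strain means of the adenoma classes, 40 groups of 20 named members were examined for a strain far from the others of its class. For members picked without regard to strain differences, chance would flag about 1 in 20 groups. Many of these members were named for calls in strain pairs or small F p-values, so that rate does not apply to them. In the 7 strains of increased severity, Pcdhb4 was 6.166 in 129S1/SvlmJ, and the nearest strain was at 5.788. Pcdhb11 in the same class was 4.961 in C57BL/6J, with the nearest strain at 5.527. Pcdhgb7 was 7.277 in C3H/HeJ, and the nearest strain was at 8.414 both among the 7 strains of increased severity and among the 6 of decreased frequency.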

How the results depend on the processing

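The 38 results were counts of members or F tests, which have no direction that could reverse. Of 1262 alternative values 1206 kept their side of the threshold, or stayed within 1.5 times for a count. Quantile normalization and median centring each gave 1 alpha member in the F test (Pcdhac2) and 15 members in C3H/HeJ. Leaving out dim probe sets gave 1 alpha member. Array weights gave 1 alpha member, 7 members in A/J, 5 in C3H/HeJ and 22 in C57BL/6J. With a minimum difference of 0.5, 34 members were called in a pair, and 39 with none. Against the other 8 strains a minimum of 0.5 left 3 members in BALB/cJ, 2 in C57L/J, 4 in DBA/2J, 6 in KK/HlJ and 4 in MRL/MpJ. At an adjusted p under 0.01, 9 beta members passed the F test. The causes were not tested.

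The replicate block changed no other count by over 1.5 times. With the strain as a random block and the replicate block, 1 member was called for severity, Pcdhb4 (difference -0.66, adjusted p = 0.0434). Without the replicate term the adjusted p was 0.0538. This fit took single arrays as units, although the class belongs to the strain and the replicate numbers did not pair the mice. The severity classes overlapped in Pcdhb4. KK/HlJ averaged 6.86 and MRL/MpJ 5.99, both of decreased severity, and 129S1/SvlmJ, of increased severity, averaged 6.17. No class difference is drawn from this call.

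Leaving out 1 array in turn gave 26 to 36 members in the F test, 0 to 1 alpha, 12 to 17 beta, 14 to 18 gamma, and 10 to 14 called in a pair. Strain counts ran from 6 to 10 in 129S1/SvlmJ, 0 to 6 in A/J, 2 to 6 in BALB/cJ, 6 to 12 in C3H/HeJ, 9 to 14 in C57BL/6J, 2 to 7 in C57L/J, 2 to 10 in DBA/2J, 6 to 12 in KK/HlJ and 6 to 9 in MRL/MpJ. The arrays that moved a strain's count by over 1.5 times were KK/HlJ replicate 2 (6 members), BALB/cJ replicate 2 (2), A/J replicates 1 (2), 2 (0) and 3 (2), C57L/J replicates 1 (3), 2 (2) and 3 (2), and DBA/2J replicates 1 (3), 2 (4) and 3 (2). An alpha member passed without KK/HlJ replicate 2 or 3, C57BL/6J replicate 2, A/J replicate 1 or 3, or BALB/cJ replicate 1. No member was called for an adenoma class when an array or a strain was left out. Pcdhb16 lost its F test call without 6 of the arrays, at adjusted p of up to 0.118. Detection calls were not used. In the alpha cluster 9 of 14 members were above the Y-linked level of 5.25 in no strain, the most of the 3 clusters. The median SD within a strain was 0.346 for alpha members and 0.109 for the 7 Y-linked genes. How far low signal limits the alpha results was not tested.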
